A study of Mus musculus with 12 samples.

Results

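The effect of genotype common to both stages was measured over all 12 libraries of the series, 6 from mutant and 6 from wild-type mice, with stage as a block term in the model. No library was left out, so the comparison used 12 of 12. The mutant mice were homozygous for the Q455K change of Col8a2, which encodes a chain of collagen VIII, and the wild-type mice carried no such change. The headers of the authors' deposited tables label the wild-type controls c57, and no strain is given for the mutants in the sources used here. Each genotype was sampled at an early stage of at most 2 months and at a late stage of at least 8 months, with 3 biological replicates in each of the 4 groups (early mutant, early wild type, late mutant and late wild type). The change is present in every cell of the animal rather than in the corneal endothelium alone. Early libraries formed batch 1 and late libraries batch 2 by their labels, so the effects of age and of batch cannot be told apart, while each batch holds both genotypes.

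The corneal endothelium is the single cell layer on the inner face of the cornea, and it keeps the cornea clear by pumping ions and water out of the stroma. Its cells lay down Descemet's membrane, in which the alpha-1 and alpha-2 chains of collagen VIII form a lattice. Changes in COL8A2 are a known cause of an early form of Fuchs endothelial corneal dystrophy in people, a disease in which that membrane thickens and endothelial cells are lost. Collagen chains are folded, modified and packed in the endoplasmic reticulum (ER) before they are carried through the Golgi apparatus to the cell surface.

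Total counts per library were between 19722598 and 39431676, so 3 counts correspond to 0.0761 to 0.152 CPM (counts scaled to the library total). The 20 corneal endothelial markers summed to 11395 to 16871 CPM in mutant libraries and 8724 to 15662 CPM in wild-type libraries, and none of the 20 was without counts. Markers of other cells were present as well. Keratocyte markers, a list that shares Ptgds with the endothelial one, summed to 21706 to 32447 CPM in mutants and 19464 to 29793 CPM in wild type, and lens markers to 2023 to 2625 CPM in mutants and 2145 to 4153 CPM in wild type. Late wild-type replicate 1 stood apart from its group: the variance between it and the other late wild-type libraries was 234.8 and 236.8 times the sampling noise, against 59.14 times between those 2 libraries. Col8a2 itself cannot check the genotype labels, since the mutant allele still makes a transcript. It averaged 914 CPM in mutants and 1057 CPM in wild type, with an averaged log2 fold change of -0.20 ± 0.23 (SE) and an adjusted p of 0.646. In these bulk samples fewer cells of a type and less RNA per cell cannot be told apart.

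Averaged over both stages, 994 of 17965 genes tested differed between genotypes at an adjusted p under 0.05 (edgeR's quasi-likelihood F test, Benjamini-Hochberg over all genes tested), or 5.53%. Of these, 628 genes (3.5% of those tested) were higher in mutants and 366 (2.04%) were lower. The change was at least 2-fold for 385 of the higher and 262 of the lower genes. The median log2 fold change over all genes tested was -0.08. In a fit with a separate level for each of the 4 groups, 106 genes (0.59%) passed the same threshold early and 983 (5.47%) late. Among the 994 genes, 102 passed in both stages, 3 in the early stage alone and 453 in the late stage alone. The remaining 436 genes, 43.9% of the 994 and 2.43% of all genes tested, passed in neither stage. The number of calls depends on single libraries: leaving out 1 of the 12 gave 555 to 1810 calls in place of 994 and 204 to 630 in place of 436. Calls numbered 555 without late mutant replicate 1, 572 without early mutant replicate 1, 588 without late mutant replicate 3 and 1810 without late wild-type replicate 1. The set called in neither stage held 204 genes without early mutant replicate 1.

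The set called in neither stage held 290 genes higher and 146 lower in mutants, and 226 of its 436 genes changed at least 2-fold. Among the 290 higher genes the median log2 fold change was 0.93 averaged, 0.92 early and 0.97 late. Among the 146 lower genes it was -1.22 averaged, -1.07 early and -1.46 late. Missing the threshold in a stage does not mean that the stage lacked the difference. Late adjusted p-values in the set had a median of 0.0798 and were under 0.1 for 309 genes (70.9%), whereas early ones had a median of 0.485 and were under 0.1 for 14 genes. Without adjustment, 370 of the 436 genes had p under 0.05 early and 418 had it late. The median SE of a log2 fold change among genes of at least 5 CPM was 0.23 for the averaged effect, 0.31 early and 0.31 late. Every one of the 436 genes had the same sign in both stages, which the choice of genes by their averaged effect favours. The unadjusted p of the difference between stages was at least 0.0783 in the set, with a median of 0.646, and this too was read on values the choice had used. Within each stage, mutant values were apart from those of wild type, in the same direction both times, for 270 of the 436 genes. This was so for 1062 of all genes tested (5.91%), and the choice of the 436 by their averaged effect favours it too. The genes just inside and just outside lay close together, since the highest averaged adjusted p in the set was 0.05 and the lowest late adjusted p was 0.0501.

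**Figure D1:**
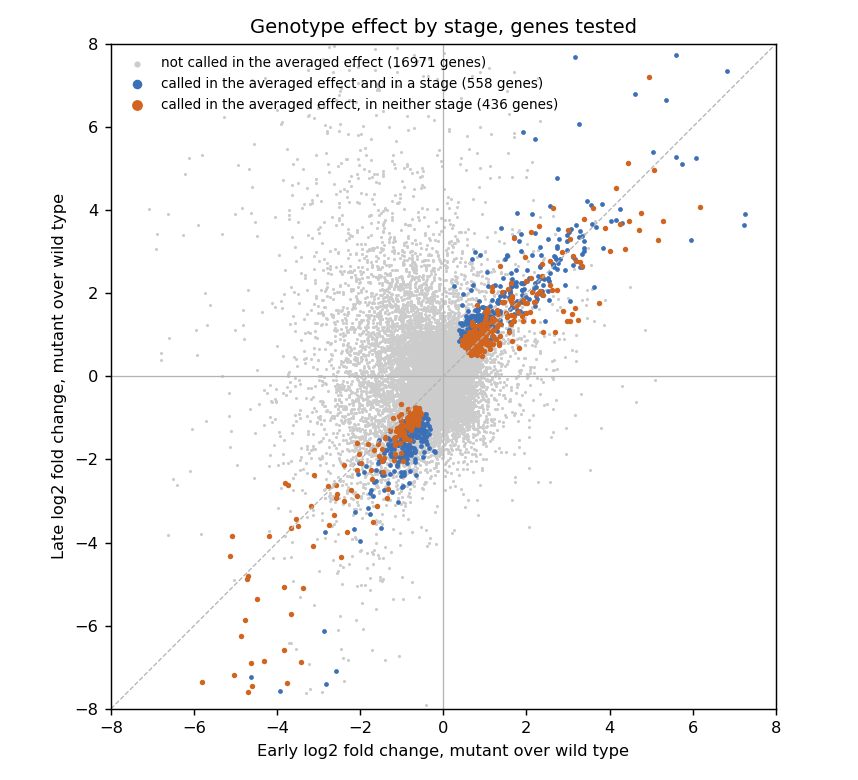
Log2 fold change of mutant over wild type in the early stage (horizontal axis) and in the late stage (vertical axis) for each gene tested, with the dashed line marking equal values and 15 genes outside the axes. The 436 genes called in the averaged effect and in neither stage (orange) lie among the 558 called in a stage as well (blue), in the upper right and lower left, while genes not called (grey) fill the centre and the upper left.

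The gene of the set with the smallest p that was higher in mutants, at 5 CPM or more and with no overlap in either stage, was Car2, the carbonic anhydrase that supplies bicarbonate for the endothelial pump. Car2 had 9.97, 8.17 and 5.60 CPM in early mutants against 3.89, 2.90 and 2.84 CPM in early wild type. In late mutants it had 8.08, 5.77 and 8.52 CPM against 3.02, 3.85 and 2.99 CPM in late wild type. The lowest of the 6 mutant values stood above the highest of the 6 wild-type values. Its averaged log2 fold change was 1.24 ± 0.24 (SE, adjusted p = 0.00412), with 1.30 early (adjusted p = 0.137) and 1.18 late (adjusted p = 0.0514). Fxyd6, a regulator of the sodium pump, had 18.8, 10.1 and 8.10 CPM in early mutants against 5.24, 3.82 and 2.40 CPM in early wild type. Late libraries gave Fxyd6 9.80, 10.2 and 13.8 CPM in mutants against 2.49, 3.69 and 7.27 CPM in wild type. The genotypes were again apart in both stages, and the averaged log2 fold change was 1.51 ± 0.30 (adjusted p = 0.00446). Srgn, the core protein of a proteoglycan stored in granules of blood cells, rose 1.97-fold, with 65.0 CPM in mutants and 33.1 CPM in wild type as means of 6 libraries (adjusted p = 0.00577). Kcnf1, an electrically silent potassium channel subunit, rose 2.10-fold, with 19.5 CPM in mutants and 9.31 CPM in wild type (adjusted p = 0.00595).

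Several of the genes that followed by p belong to signalling, growth control and metabolism. As for Car2 and Fxyd6, only genes with no overlap in either stage were taken, so the lack of overlap within a stage was set by the choice. Ier3, an immediate early gene, had 95.1, 85.9 and 98.1 CPM in early mutants against 47.2, 47.8 and 33.4 CPM in early wild type. Its late values were 60.6, 103.0 and 71.8 CPM in mutants against 55.8, 45.1 and 37.9 CPM in wild type, so the late groups lay close but did not overlap. The averaged log2 fold change of Ier3 was 0.94 ± 0.20 (adjusted p = 0.00656). Nuak2, an AMPK-related kinase and known YAP target, had 292.2, 255.3 and 321.1 CPM in early mutants against 171.6, 179.8 and 134.4 CPM in early wild type. In the late stage Nuak2 had 274.5, 240.8 and 289.2 CPM in mutants against 176.4, 121.8 and 154.2 CPM in wild type. All 6 mutant libraries exceeded all 6 wild-type libraries, and the log2 fold change was 0.83 ± 0.17 averaged (adjusted p = 0.00669), 0.84 early (adjusted p = 0.213) and 0.83 late (adjusted p = 0.0509). Pfkp, a phosphofructokinase of glycolysis, rose 1.79-fold, with 158.3 CPM in mutants and 88.3 CPM in wild type (adjusted p = 0.00705). Ccnd3, a D-type cyclin of the G1 phase, had 123.9, 70.7 and 92.7 CPM in early mutants against 44.1, 55.7 and 24.5 CPM in early wild type, and 110.9, 70.3 and 82.0 CPM in late mutants against 65.6, 29.2 and 26.1 CPM in late wild type. Ccnd3 rose 2.24-fold (adjusted p = 0.0102).

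The others taken by the same rule were the phosphatase Ptp4a3 (log2 fold change 1.13 ± 0.24), the small GTPase Gem (1.51 ± 0.32), the granule protein Chgb (1.31 ± 0.28), the myotubularin-related Mtmr10 (1.01 ± 0.22), the adhesion protein Nlgn3 (0.93 ± 0.20) and the endocytic ATPase Ehd4 (0.87 ± 0.19). Their adjusted p-values were 0.00721 for Ptp4a3, 0.00752 for Gem, 0.00798 for Chgb, 0.00901 for Mtmr10, 0.00921 for Nlgn3 and 0.0100 for Ehd4. All 14 of these higher genes passed the threshold in every fit that left out 1 library.

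**Figure D2:**
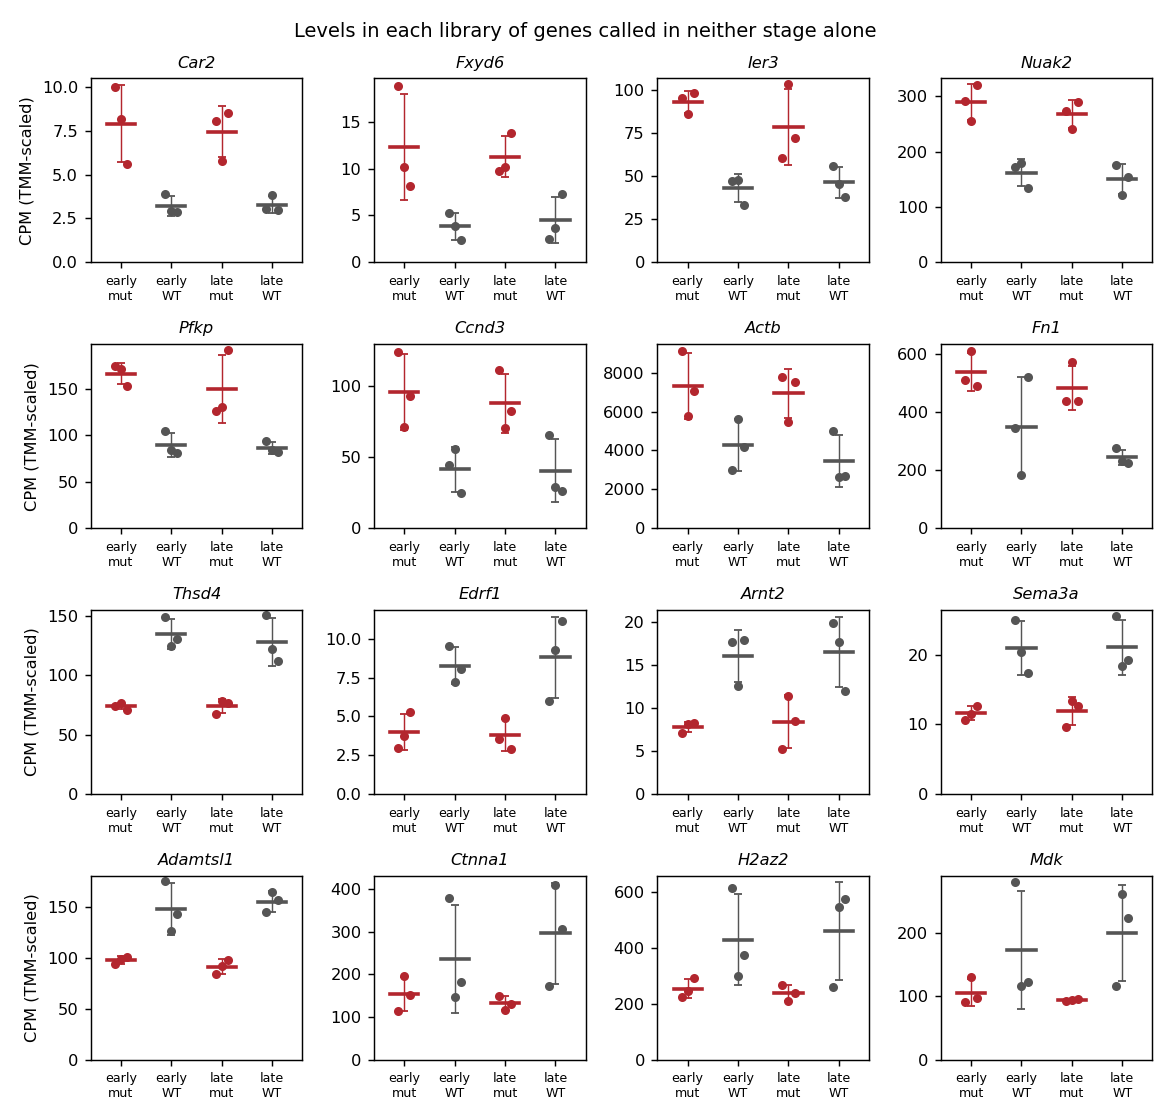
TMM-scaled CPM (vertical axis, from 0) of 16 genes called in the averaged effect and in neither stage, as points for the 3 libraries of each group, with the bar at the group mean and the whiskers at 1 SD. Mutant libraries (red) stand above wild type (grey) in the upper 8 panels and below it in the lower 8, and the groups overlap in the early stage for Fn1, Ctnna1 and Mdk and in the late stage for H2az2.

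Genes of the set with the highest CPM, a measure that also grows with transcript length, included cytoskeletal, matrix and secretory genes. Actb, encoding cytoplasmic beta-actin, had 9111, 5794 and 7034 CPM in early mutants against 2970, 5628 and 4176 CPM in early wild type. Its late values were 7802, 5483 and 7544 CPM in mutants against 5014, 2649 and 2687 CPM in wild type. The groups did not overlap in either stage, although early mutant replicate 2 and early wild-type replicate 2 lay close, and the averaged log2 fold change was 0.89 ± 0.22 (adjusted p = 0.0198). Reads of Actb can also match its many processed pseudogenes. Leaving out early mutant replicate 1, late mutant replicate 1 or late wild-type replicate 2 ended the call of Actb, with log2 fold changes between 0.82 and 1.13 and adjusted p up to 0.061 over all such fits. Fn1, encoding fibronectin, had 512.9, 613.0 and 491.6 CPM in early mutants against 345.4, 182.0 and 523.0 CPM in early wild type. In the late stage Fn1 had 440.1, 572.3 and 439.3 CPM in mutants against 274.8, 231.3 and 226.0 CPM in wild type. The late groups were apart and the early groups overlapped through early wild-type replicate 3. Fn1 rose 1.75-fold (log2 fold change 0.81 ± 0.22, adjusted p = 0.037), and the call was lost without any 1 of 7 libraries (early mutants 1 and 2, late mutants 1, 2 and 3, and late wild types 2 and 3), with adjusted p up to 0.0812.

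Ctsh, encoding the lysosomal protease cathepsin H, averaged 905.1 CPM in mutants and 571.5 CPM in wild type (1.59-fold, adjusted p = 0.0328). Tsc22d1, a leucine zipper gene known to respond to TGF-beta, averaged 898.8 CPM in mutants and 476.1 CPM in wild type (1.90-fold, adjusted p = 0.043). Cpe, a carboxypeptidase that trims prohormones, averaged 653.0 CPM in mutants and 332.5 CPM in wild type (1.97-fold, adjusted p = 0.0494), and Gpc4, a cell-surface heparan sulfate proteoglycan, averaged 440.3 CPM in mutants and 272.6 CPM in wild type (1.62-fold, adjusted p = 0.0465). These 4 calls were less stable, since Ctsh lost its call in 5, Tsc22d1 in 4, Cpe in 7 and Gpc4 in 8 of the 12 fits that left out 1 library.

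Among genes of the set lower in mutants, Thsd4 had the smallest p of those with no overlap. Thsd4 encodes an ADAMTS-like protein of extracellular microfibrils. It had 74.5, 76.9 and 71.1 CPM in early mutants against 148.9, 124.4 and 130.4 CPM in early wild type, and 67.2, 78.2 and 76.3 CPM in late mutants against 150.8, 122.0 and 111.8 CPM in late wild type. Both genotypes kept to a narrow range, and every mutant library lay below every wild-type library. The averaged log2 fold change was -0.83 ± 0.17 (adjusted p = 0.00525), with -0.86 early (adjusted p = 0.149) and -0.80 late (adjusted p = 0.0504). A related secreted protein, Adamtsl1, had 93.5, 99.1 and 100.6 CPM in early mutants against 175.3, 125.7 and 142.3 CPM in early wild type. Late libraries gave Adamtsl1 83.6, 92.0 and 97.7 CPM in mutants against 144.2, 164.0 and 156.2 CPM in wild type. Its log2 fold change was -0.68 ± 0.17 (adjusted p = 0.0195), and leaving out early mutants 1 or 2 or any late mutant ended the call at adjusted p up to 0.0776.

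Arnt2, a bHLH-PAS transcription factor that pairs with others of its family, had 7.08, 8.09 and 8.23 CPM in early mutants against 17.7, 12.6 and 17.9 CPM in early wild type. In the late stage Arnt2 had 5.23, 11.5 and 8.55 CPM in mutants against 19.9, 17.7 and 12.04 CPM in wild type, and its log2 fold change was -1.01 ± 0.22 (adjusted p = 0.00975). Edrf1, named in people as a regulator of erythroid differentiation, had 2.95, 3.77 and 5.26 CPM in early mutants against 9.55, 7.21 and 8.09 CPM in early wild type. Its late values were 3.58, 4.91 and 2.88 CPM in mutants against 6.03, 9.27 and 11.2 CPM in wild type, with a log2 fold change of -1.14 ± 0.25 (adjusted p = 0.00948). Sema3a, a secreted guidance cue, averaged 11.7 CPM in mutants and 21.0 CPM in wild type (log2 fold change -0.84 ± 0.19, adjusted p = 0.0108). Prkar2b, a regulatory subunit of protein kinase A, averaged 4.26 CPM in mutants and 9.67 CPM in wild type (log2 fold change -1.18 ± 0.28, adjusted p = 0.0152). Thsd4, Arnt2 and Prkar2b passed in every fit that left out 1 library, while without late mutant replicate 3 Edrf1 had an adjusted p of 0.0506 and Sema3a one of 0.0514.

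Further lower genes under the same rule were Sobp (log2 fold change -1.04 ± 0.26), the Golgi mannosidase Man2a1 (-0.90 ± 0.23), the background potassium channel Kcnk3 (-1.03 ± 0.26), the GTPase-activating protein Arhgap42 (-0.92 ± 0.23), the elongation complex subunit Mllt3 (-0.78 ± 0.20), the glycosyltransferase Mgat3 (-0.87 ± 0.23) and Kctd1 (-0.72 ± 0.19). Their adjusted p-values were between 0.0241 for Sobp and 0.0283 for Kctd1, and each lost the call in 5 to 10 of the 12 fits that left out 1 library. By CPM the leading lower genes were H2az2, a histone H2A variant (-0.85 ± 0.22), Mrpl27 of the mitochondrial ribosome (-0.85 ± 0.24), Ctnna1, the alpha-catenin that ties cadherins to actin (-0.89 ± 0.26), the growth factor Mdk (-0.89 ± 0.25) and the hydrolase Bphl (-0.74 ± 0.21), beside Adamtsl1. Ctnna1 had 114.8, 195.8 and 151.5 CPM in early mutants against 379.7, 145.9 and 181.3 CPM in early wild type, and 148.4, 116.2 and 131.5 CPM in late mutants against 171.9, 409.2 and 306.7 CPM in late wild type. In H2az2, Mrpl27, Ctnna1, Mdk and Bphl alike, replicate 1 was the highest early and the lowest late wild-type library. These 5 genes lost the call in 8 or 9 of the 12 fits that left out 1 library, late wild-type replicate 2 among them, with adjusted p up to 0.137 for Ctnna1.

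Genes that fold, modify and carry secreted proteins were called higher in mutants, and with all 12 libraries none was called lower, also by DESeq2 and limma-voom, nor did any have an unadjusted p under 0.05 in that direction. Without the libraries early wild type 2 and late wild type 1 together, 1 gene of translocon and glycosylation and 1 of ER to Golgi transport were called lower. Counts in this and the following lists stand beside 3.5% higher, 2.04% lower and 2.43% in neither stage over all genes tested. Of 24 ER chaperones and folding enzymes tested, 8 were higher (median log2 fold change 0.68, against -0.08 over all genes), of which P4hb and Txndc11 passed in neither stage. The 8 became 6 to 13 when 1 library was left out, with 13 without late wild-type replicate 1. P4hb, the disulfide isomerase that is also the beta subunit of collagen prolyl hydroxylase, averaged 373.3 CPM in mutants and 231.0 CPM in wild type (log2 fold change 0.70 ± 0.17, adjusted p = 0.0187). Of 41 translocon and glycosylation genes 6 were higher (median 0.38), with Sec61a1, the pore of the translocon, and Pgm3, which makes a sugar precursor, in the set. Sec61a1 had 175.3, 122.8 and 133.0 CPM in early mutants against 87.7, 100 and 73.7 CPM in early wild type. Its late values were 158.7, 128.4 and 124.6 CPM in mutants against 94.2, 65.3 and 63.4 CPM in wild type, with a log2 fold change of 0.80 ± 0.18 (adjusted p = 0.0132, and 0.0516 without early mutant replicate 1). The count of 6 became 3 without early mutant 1 or late mutant 1 and 11 without late wild type 1.

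Transport out of the ER added 5 genes to the set. Of 45 genes of ER to Golgi transport tested 8 were higher (median 0.35), and 5 of the 8 passed in neither stage. That count rests on single libraries: it was 0 without early mutant 1, late wild type 2 or late wild type 3, 1 without late mutant 1 or 3, 2 without early mutant 3 or early wild type 3, and 14 without late wild type 1. Sec24d and Sec31a, coat proteins of the COPII vesicles that take up procollagen, had log2 fold changes of 0.63 ± 0.18 (adjusted p = 0.0443) and 0.58 ± 0.17 (adjusted p = 0.0481). The cargo receptor Tmed7 (0.87 ± 0.25, adjusted p = 0.0474), the retrieval receptor Kdelr1 (0.61 ± 0.18, adjusted p = 0.0446) and Creb3l2, a membrane-bound transcription factor of secretory genes (0.80 ± 0.22, adjusted p = 0.0408), were the others. All 5 stood close to the threshold, with adjusted p-values between 0.0408 and 0.0481, and each lost its call in 8 to 11 of the 12 fits that left out 1 library. Among 25 genes for folding and crosslinking of collagen, 6 were higher (median 0.58), and 4 of them passed in neither stage. The 6 became 3 without early mutant 1, late mutant 1, late wild type 2 or late wild type 3, and 13 without late wild type 1. P4ha1, the catalytic subunit of prolyl 4-hydroxylase, had 213.3, 223.4 and 202.8 CPM in early mutants against 134.2, 106.6 and 131.5 CPM in early wild type. The late values of P4ha1 were 193.7, 174.3 and 196.2 CPM in mutants against 151.1, 106.7 and 86.9 CPM in wild type, and all 6 mutant libraries were higher (log2 fold change 0.75 ± 0.18, adjusted p = 0.0174). Crtap, of the complex that modifies prolines (0.61 ± 0.17), and the collagen galactosyltransferases Colgalt1 (0.77 ± 0.18) and Colgalt2 (0.90 ± 0.23) had adjusted p-values of 0.0431, 0.0166 and 0.0261 in that order. Of 27 ER degradation genes 3 were higher (median 0.42), none of them in the set, and the 3 became 6 without early wild type 1 or 2, 5 without late mutant 2 and 10 without late wild type 1.

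The 9 genes of these ER and transport lists in the set were searched for promoter motifs, and RefSeq promoter windows (250 bases before to 50 after the start, build GRCm38.p6) matched 7 of them. Windows on 1 chromosome were left out of this match by rule, while the shares given below cover all chromosomes. The motifs, on both strands, were CCAAT followed after 9 bases by CCACG and TGACGTGG, both known from ER stress genes, TGATGNAAT of ATF4 sites, TGANTCA of AP-1, the cAMP response element TGACGTCA, and the E-box CACGTG. The reverse complement of TGACGTGG opens with CCACG, so the first 2 motifs can overlap. Only Sec24d and Txndc11 among the 7 held TGACGTGG. Counted by gene, 5 of 219 higher genes in the set with a window (2.28%) and 3 of 109 such lower genes (2.75%) held it. The share was 1% of all genes tested that had a window. A gene counts here if any of its windows holds the motif. Counted by window, an unlike measure, 0.676% of all windows held it. The windows of Sec24d and Txndc11 are shown because these genes carried both the motif and a call that neither stage gave. Chgb is shown for the cAMP response element. All 3 were chosen after their values were seen. Capitals mark the motif. Sec24d lies on chromosome 3 (chr3:123267246-123267545, plus strand), Txndc11 on chromosome 16 (chr16:11134483-11134782, minus strand, with a second window that holds none of the motifs) and Chgb on chromosome 2 (chr2:132781392-132781691, plus strand).
Sec24d: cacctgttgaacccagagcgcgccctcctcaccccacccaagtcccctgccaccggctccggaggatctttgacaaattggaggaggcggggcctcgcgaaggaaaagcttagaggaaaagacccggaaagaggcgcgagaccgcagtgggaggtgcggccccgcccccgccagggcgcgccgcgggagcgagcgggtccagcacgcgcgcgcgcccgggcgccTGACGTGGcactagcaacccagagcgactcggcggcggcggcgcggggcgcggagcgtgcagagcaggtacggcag
Txndc11: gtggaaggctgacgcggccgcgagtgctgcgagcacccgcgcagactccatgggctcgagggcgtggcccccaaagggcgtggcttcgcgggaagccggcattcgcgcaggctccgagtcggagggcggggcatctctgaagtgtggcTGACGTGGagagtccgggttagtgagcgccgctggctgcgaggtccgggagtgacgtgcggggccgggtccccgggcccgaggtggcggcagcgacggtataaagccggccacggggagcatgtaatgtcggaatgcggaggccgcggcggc
Chgb: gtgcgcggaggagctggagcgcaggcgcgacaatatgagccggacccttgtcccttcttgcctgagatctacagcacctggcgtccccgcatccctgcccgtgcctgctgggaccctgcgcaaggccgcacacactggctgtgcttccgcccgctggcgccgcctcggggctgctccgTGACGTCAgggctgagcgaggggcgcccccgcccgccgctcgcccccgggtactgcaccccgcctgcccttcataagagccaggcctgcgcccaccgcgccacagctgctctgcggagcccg
The element TGACGTCA shown in Chgb was counted by gene in the same way, among genes with a window. It was held by 15 of 219 higher genes (6.85%) and 1 of 109 lower genes (0.917%) in the set. Among higher genes called in a stage as well 8 of 254 (3.15%) held it, and 3.03% of all genes tested. The motif of CCAAT and CCACG and TGATGNAAT were each held by 0 of 219 higher and 0 of 109 lower genes in the set. Their shares of all genes tested were 0.152% and 0.58%. TGANTCA was held by 8.22% of higher and 12.8% of lower genes in the set, against 6.98% of all. It was held by 13.8% of higher genes called in a stage as well. CACGTG was held by 11.9% of higher and 7.34% of lower genes in the set, against 10.7% of all. A match of letters is a description and does not show that a factor binds there.

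Stress and signalling lists held some of the highest medians. Of 30 ATF4 and integrated stress response genes 14 were higher (median 0.78), with Mthfd2, Gdf15 and Stc2 in the set. Mthfd2, a mitochondrial folate enzyme, averaged 6.98 CPM in mutants and 3.43 CPM in wild type (log2 fold change 1.03 ± 0.29, adjusted p = 0.043). Gdf15 averaged 1.49 CPM in mutants and 0.121 CPM in wild type, and Stc2, a secreted stress-induced glycoprotein, averaged 1.77 CPM in mutants and 0.227 CPM in wild type, so their wild-type levels were near that of 3 counts. Of 27 immediate early and AP-1 genes 13 were higher (median 1.31), of which Ier3, Klf4 and Ccn2 passed in neither stage. Ccn2, a matricellular protein known as a YAP and TGF-beta target, had 277.5, 824.2 and 491.7 CPM in early mutants against 160.1, 227.8 and 202.4 CPM in early wild type, and 972.0, 278.5 and 300.0 CPM in late mutants against 229.9, 142.3 and 76.2 CPM in late wild type. The mutant libraries of Ccn2 spread widely yet all lay above the wild-type libraries, and its log2 fold change was 1.61 ± 0.35 (adjusted p = 0.0102). Further lists shared members with this one. Of 15 ERK feedback genes 5 were higher, and Dusp5, Etv5 and Ier3 were in the set. The 5 became 3 without any 1 of 7 libraries (early mutants 1 and 3, late mutants 1 and 2, early wild type 1, and late wild types 2 and 3). Of 20 YAP and TEAD targets 6 were higher (median 0.40), and Ccn2, Axl, Nuak2 and Gadd45b were in the set, with 10 higher without late wild type 1. The ATF4 count of 14 became 11 to 17 and the immediate early count of 13 became 12 to 16 when 1 library was left out.

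Of 26 p53 targets and senescence genes 9 were higher (median 0.71), and 5 of the 9 passed in neither stage. Trp53 itself averaged 77.0 CPM in mutants and 49.0 CPM in wild type (log2 fold change 0.66 ± 0.18, adjusted p = 0.0399). Gadd45a, induced by DNA damage and other stress, had 2.24, 6.01 and 2.23 CPM in early mutants against 1.20, 0.571 and 0.825 CPM in early wild type. In the late stage Gadd45a had 3.68, 3.93 and 4.47 CPM in mutants against 0.525, 1.65 and 1.36 CPM in wild type, with a log2 fold change of 1.89 ± 0.39 (adjusted p = 0.00593). Gadd45a kept its call in all 12 fits that left out 1 library, while Trp53 lost it in 7. Its relatives Gadd45b (0.78 ± 0.20, adjusted p = 0.0296) and Gadd45g (0.96 ± 0.21, adjusted p = 0.0103) were in the set as well. Of 27 cytokine, chemokine and NF-kB genes 14 were higher (median 1.36), with Stat3, Cxcl1, Cx3cl1, Nfkbia and Birc3 in the set. The 14 became 8 without late mutant replicate 1. Nfkbia, which encodes the inhibitor that NF-kB itself induces, averaged 197.6 CPM in mutants and 112.6 CPM in wild type (0.81 ± 0.19, adjusted p = 0.0174), and Stat3 averaged 98.4 CPM in mutants and 59.7 CPM in wild type (0.72 ± 0.18, adjusted p = 0.0196). Macrophage and myeloid markers summed to 392 to 957 CPM in mutants against 67.1 to 132 CPM in wild type, and their part in these lists was not tested.

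Matrix genes that were called were higher in mutants with 1 exception among the interstitial genes. Of 37 interstitial matrix and remodelling genes 15 were higher and 1, Adamts1, was lower (median 0.76), and Col1a1, Fn1, Fbln1, Mmp9 and Plau were among those that passed in neither stage. Col1a1, the main fibrillar collagen chain of the stroma, had 120.1, 97.1 and 54.9 CPM in early mutants against 62.9, 25.2 and 49.6 CPM in early wild type, and 92.1, 125.7 and 99.2 CPM in late mutants against 33.5, 65.4 and 46.8 CPM in late wild type. The early groups overlapped through 1 library of each genotype, and the log2 fold change of Col1a1 was 1.05 ± 0.25 (adjusted p = 0.0153, and 0.051 without early mutant replicate 1). Col1a1 is a keratocyte marker too, and of the 14 keratocyte markers tested 3 were higher. Mmp9 and Plau, proteases of matrix breakdown, averaged 0.547 and 0.906 CPM in mutants against 0.0397 and 0.0667 CPM in wild type, the wild-type levels being under that of 3 counts. Of 32 basement membrane genes 5 were higher (median 0.30), with the laminin receptor chain Itga3 in the set (0.72 ± 0.17, adjusted p = 0.0188). The 15 interstitial genes became 10 to 17 when 1 library was left out, and the 5 basement membrane genes became 3 without early mutant 1 and 9 without late wild type 1. The collagen VIII partner chain Col8a1 averaged 1423 CPM in mutants and 989 CPM in wild type and was not called (0.52 ± 0.22, adjusted p = 0.173).

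Of 19 genes of mesenchymal transition 6 were higher (median 0.67 averaged, -0.02 early and 0.99 late), and 5 of the 6 were in the set: Snai1, Snai2, Twist2, Vim and Fn1. The 6 became 2 without early mutant 1, 3 without late mutant 1, late mutant 2 or late wild type 3, and 4 with DESeq2 size factors or limma-voom. Snai2, a repressor of epithelial genes, had 4.34, 4.18 and 5.10 CPM in early mutants against 2.28, 1.63 and 1.60 CPM in early wild type. The late values of Snai2 were 3.51, 3.01 and 6.35 CPM in mutants against 1.64, 1.93 and 0.971 CPM in wild type, with a log2 fold change of 1.40 ± 0.31 (adjusted p = 0.00963). Snai1 averaged 4.04 CPM in mutants and 1.496 CPM in wild type (1.44 ± 0.35, adjusted p = 0.0198), and the call was lost without early mutant replicate 1 (adjusted p = 0.0991). Vim, the intermediate filament vimentin, averaged 180.8 CPM in mutants and 115.6 CPM in wild type (0.67 ± 0.19, adjusted p = 0.0468), and Twist2 averaged 1.86 CPM in mutants and 0.533 CPM in wild type (1.83 ± 0.53, adjusted p = 0.0491). Vim and Twist2 each lost the call in 8 of the 12 fits that left out 1 library, and Snai2 in none. Zeb1, another repressor of epithelial genes and a gene of inherited corneal disease, was not called (-0.33 ± 0.19, adjusted p = 0.321). Of 39 actin and focal adhesion genes 7 were higher (median 0.15), with Actb, the small GTPase Cdc42 (0.62 ± 0.17, adjusted p = 0.0388) and the nuclear lamina gene Lmna (0.67 ± 0.19, adjusted p = 0.0458) in the set. The 7 became 3 without early mutant 1 or late mutant 1 and 4 without late mutant 3, late wild type 2 or late wild type 3, and Cdc42 lost its call in 7 and Lmna in 5 of the 12 such fits. Of 26 cell junction genes Cgn was higher (1.31 ± 0.38, adjusted p = 0.046) and Ctnna1 lower, both in the set, while Tjp1 (-0.46 ± 0.26, adjusted p = 0.30) and Cdh2 (-0.38 ± 0.22, adjusted p = 0.313) were not called. Cgn lost its call in 9 of the 12 fits.

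Of 27 ion and fluid transport genes 4 were higher (median 0.28), and Car2 and the potassium channel Kcnk1 were in the set (Kcnk1 0.87 ± 0.21, adjusted p = 0.0183). Atp1b1, a beta subunit of the sodium pump, averaged 959 CPM in mutants and 1174 CPM in wild type and was not called on average (-0.29 ± 0.24, adjusted p = 0.524). Its stage values were 0.39 early (adjusted p = 0.625) and -0.97 late (adjusted p = 0.0352), with an unadjusted p of 0.00127 for their difference. Slc4a11, an endothelial transporter mutated in corneal dystrophy, averaged 5035 CPM in mutants and 3233 CPM in wild type and was not called (0.64 ± 0.25, adjusted p = 0.139).

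Lysosomal genes gave 9 higher of 43 (median 0.38), with Ctsh, Ctsk, Glb1 and Atp6v1h in the set. The 9 became 5 without early mutant 1, early wild type 3, late mutant 1 or late wild type 3, and 17 without late wild type 1. Atp6v1h, a subunit of the proton pump, averaged 39.8 CPM in mutants and 21.9 CPM in wild type (0.86 ± 0.20, adjusted p = 0.0139), and Ctsk, a collagen-degrading cathepsin, averaged 86.1 CPM in mutants and 54.2 CPM in wild type (0.68 ± 0.19, adjusted p = 0.0381). Atp6v1h kept its call in all 12 fits that left out 1 library, and Ctsk lost it in 6. Of 23 cholesterol synthesis genes 3 were higher (median 0.53), with the sterol enzymes Sqle (0.69 ± 0.19, adjusted p = 0.033) and Lss (0.95 ± 0.27, adjusted p = 0.0439) in the set, and the 3 became 1 without any 1 of 6 libraries (early mutants 2 and 3, late mutants 1 and 3, and late wild types 2 and 3) and 6 without late wild type 1. Ppargc1b, a coactivator of mitochondrial genes, was the only called gene of 34 in fatty acid oxidation and the citric acid cycle, and it was lower (-0.83 ± 0.24, adjusted p = 0.0431). That call was lost in 11 of the 12 fits that left out 1 library (adjusted p up to 0.134), and without late wild type 1 the list held 4 higher genes and 0 lower ones. Some lists gave no calls by edgeR with all 12 libraries. None of 49 nuclear genes of the respiratory chain was called (median -0.30 averaged, -0.03 early and -0.62 late), although 15 had an unadjusted p under 0.05 and were lower, 2 had one and were higher, and DESeq2 called 5 lower. In this list 7 were called lower with the filter at 5 CPM in 3 libraries or without early wild type 2, 5 lower and 2 higher without late wild type 1, and 17 lower and 3 higher without both. Of 42 ribosomal protein genes (median 0.11) 5 had such a p and were higher, and DESeq2 called 1. Of 35 proteasome genes (median -0.21) 3 were higher and 6 lower at that p, and DESeq2 called 1 higher. Of 34 splicing genes (median -0.12) 1 was higher and 3 lower at that p, and DESeq2 called 1 lower. Of 35 primary cilium genes (median -0.17) 1 was higher and 6 lower at that p, and DESeq2 called 1 in each direction. Of the 13 genes of the mitochondrial genome (median -0.30) 1 was lower at that p, and DESeq2 called 1 lower.

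The other pathway lists gave few genes of the set. Of 36 NRF2 and antioxidant genes 7 were higher (median 0.29), with G6pdx of the pentose phosphate pathway in the set (0.69 ± 0.20, adjusted p = 0.0475). Of 21 heat shock genes the small chaperone Hspb8 alone was called (1.28 ± 0.36, adjusted p = 0.0408), and of 28 ribosome biogenesis genes Gnl3 alone (0.69 ± 0.18, adjusted p = 0.0281), both in the set. These shares, 4.76% and 3.57%, are near the 3.5% of all genes called higher, and Hspb8 lost its call in 5 and Gnl3 in 4 of the 12 fits that left out 1 library. Of 33 cell cycle genes 5 were higher (median 0.60), of 21 glycolysis genes 2 (median 0.20) and of 26 TGF-beta and BMP genes 2 (median 0.42), with Ccnd3, Pfkp and the inhibitory Smad7 (1.51 ± 0.43, adjusted p = 0.0433) in the set. Smad7 lost its call in 10 of the 12 fits (adjusted p up to 0.145), whereas Ccnd3 and Pfkp lost it in none. The cell cycle count became 10 without early wild type 2, and without late wild type 1 the NRF2 count became 11, the glycolysis count 7 and the TGF-beta count 4. Of 20 antigen presentation genes 7 were higher (median 0.61), with the peptide-trimming Erap1 in the set (0.87 ± 0.24, adjusted p = 0.0408). Of 25 interferon response genes Irf1 was higher (0.59 ± 0.17, adjusted p = 0.0437) and Xaf1 lower (-1.02 ± 0.24, adjusted p = 0.0163), both in the set, beside 1 more higher gene called late. Irf1 lost its call in 11 of the 12 fits that left out 1 library (adjusted p up to 0.0975), Xaf1 in 2 and Erap1 in 9, and without late wild type 1 the interferon list held 4 higher and 2 lower genes. Calls in the complement list (10 of 20 higher), the tRNA synthetases (4 of 22 higher), autophagy (1 of 32 higher), the circadian clock (1 higher and 2 lower of 21) and the chromatin list (1 lower of 31) were all called in a stage as well, and of 20 one-carbon enzymes Mthfd2 alone was in the set. Without late wild type 1 the synthetase count became 7 and the autophagy count 4, and without late mutant 3 the clock list held 0 lower genes. The lower chromatin gene lost its call without any 1 of 7 libraries, and Mthfd2 did so without any 1 of 7.

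**Figure D3:**
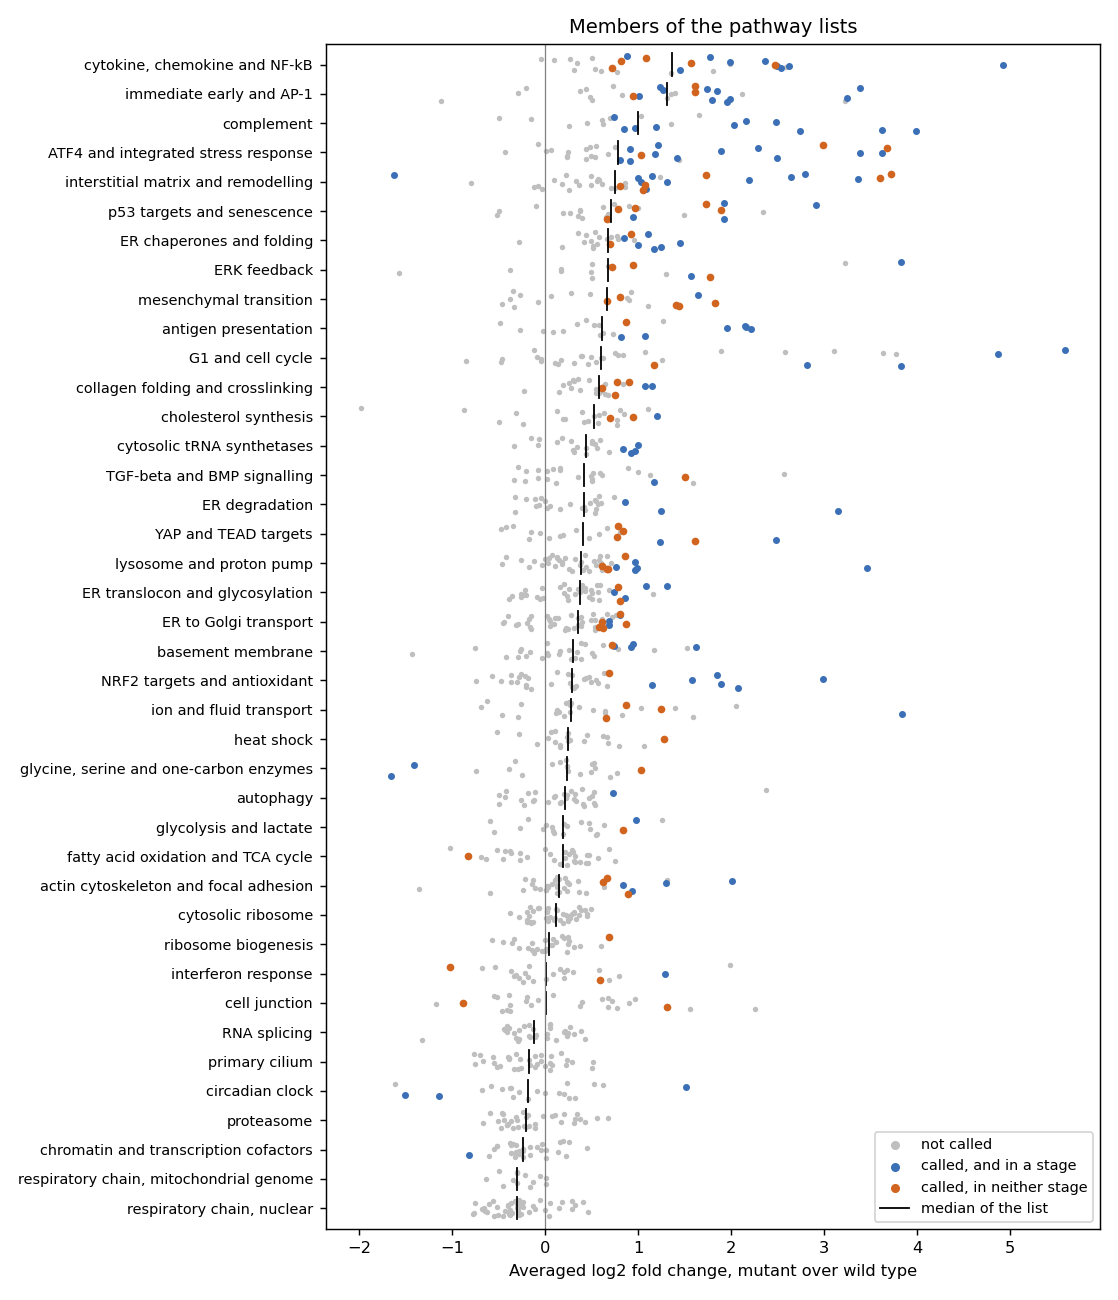
Averaged log2 fold change of mutant over wild type (horizontal axis) for the tested members of each of 40 pathway lists (rows, sorted by median), with the median as a black line. Genes called in neither stage (orange) are mixed with those called in a stage (blue) in the secretory, stress and matrix lists, and the lists at the foot hold few or no called genes.

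Markers of cells outside the endothelium were among the called genes as well. Of 20 macrophage and myeloid markers tested 16 were higher (median 2.18), and all 16 also passed in a stage. Photoreceptor markers gave 9 higher of 20 (median 1.5), of which Gnat1, Sag, Rom1, Nrl and Crx passed in neither stage, and they summed to 146 to 482 CPM in mutants against 79.2 to 179 CPM in wild type. Rom1, a protein of photoreceptor discs, averaged 57.9 CPM in mutants and 27.3 CPM in wild type (1.08 ± 0.25, adjusted p = 0.0139), and Gnat1, the rod transducin, averaged 45.6 CPM in mutants and 9.37 CPM in wild type (2.41 ± 0.51, adjusted p = 0.0151). Melanocyte and pigment markers summed to 134 to 321 CPM in mutants against 35.5 to 165 CPM in wild type, erythrocyte markers to 13.6 to 40.9 CPM in mutants against 8.46 to 19.5 CPM in wild type, and trabecular meshwork markers to 1383 to 2900 CPM in mutants against 586 to 1677 CPM in wild type. Called higher were 2 of 14 melanocyte, 1 of 6 erythrocyte and 4 of 11 trabecular meshwork markers tested. The median log2 fold changes of these lists were 1.07, 0.65 and 0.06 in that order. Of their tested markers, 9, 3 and 4 were above 0 in both stages and 4, 1 and 2 below 0. Single markers of other lists were in the set: Pmel, Hbb-bs, which is nearly identical to another beta-globin gene, Myoc and Emcn were higher, and the lens gene Crygs was lower. Emcn was the only called gene of 9 vascular markers, whose sums overlapped at 68.1 to 103 CPM in mutants and 54.3 to 145 CPM in wild type, and it lost its call in 10 of the 12 fits that left out 1 library. Crygs was the only called gene of 17 lens markers (median 0.01 averaged, -1.34 early and 1.47 late) and lost its call in 6 of these fits, and Myoc did so in 6 as well. The part of these cell types in the other results was not tested.

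The highest and lowest averaged fold changes, taken over all 994 genes at 5 CPM or more with no overlap in either stage, belonged to genes called in a stage. Ctla2a, a protease inhibitor with a near-identical neighbour, averaged 17.6 CPM in mutants and 0.418 CPM in wild type (log2 fold change 5.41 ± 0.35, adjusted p = 2.63e-08). Elobl, a relative of an elongin subunit whose reads may be shared with similar copies, averaged 21.7 CPM in mutants and 0.524 CPM in wild type (5.43 ± 0.68, adjusted p = 0.000363). C1qa of complement, a myeloid marker, had a log2 fold change of 3.99 ± 0.41, Cgref1 one of 3.98 ± 0.53 and Fxyd5, a sodium pump regulator, one of 3.84 ± 0.30. The lowest were Kctd14 (-2.69 ± 0.56), Tnfsf13os (-2.20 ± 0.29), an antisense gene whose reads cannot be told from its partner's if strand was not used, Zfp691 (-2.06 ± 0.48), the receptor Lrp1b (-2.01 ± 0.25) and the anoctamin Ano5 (-1.89 ± 0.40). Zfp691 had an unadjusted p of 0.0195 for a difference between stages, with -1.10 early and -3.02 late. Its late wild-type values were 6.30, 36.4 and 24.0 CPM, the lowest in replicate 1. Zfp691 lost its call in 5 of the 12 fits that left out 1 library (adjusted p up to 0.0749). Kctd14, Tnfsf13os, Lrp1b and Ano5 lost theirs in none.

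The averaged effect left out 428 of the 983 genes called late, and 235 of those had the opposite sign early. Of the 106 genes called early, 1 was not called on average. Among the 994 genes called on average, 50 (5.03%) had an unadjusted p under 0.05 for the difference between stages and none an adjusted one, against 2013 (11.2%) and 1 of all genes tested. The share among the 994 was read on values that their choice had used, so it is no separate test of a common effect. In the authors' deposited tables of their own stage comparisons, 331 of 17745 genes had a q-value under 0.05 early and 1265 of 16663 late. Of the 436 genes, 364 have a row in the authors' deposited tables, where 69 had a q-value under 0.05 early and 63 late, 125 in either and 239 in neither. Those tables were made from the same reads and are no separate evidence.

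Higher and lower genes also differed in kind, a feature on which they were not chosen. Non-coding genes made up 17.8% of genes tested, 3.1% of the 290 higher genes in the set (9 genes) and 43.2% of the 146 lower genes in the set (63 genes). Over all called genes the shares were 1.91% of the higher and 33.9% of the lower genes. The median gene length, as implied by counts and deposited FPKM, was 2796 bases among higher and 5362 bases among lower genes in the set, against 3603 bases over all genes tested. Lower genes were also at lower levels, with 71 of 146 at 5 CPM or more in wild type, whereas 211 of 290 higher genes reached that level in mutants. Non-coding genes took 2.87% to 3.61% of counts in mutant libraries and 4.21% to 5.73% in wild-type libraries. Without Malat1, an abundant nuclear RNA, the shares were 0.764% to 1.59% in mutants and 0.786% to 1.64% in wild type, and genes of 10000 bases or more took 2.57% to 4.07% in mutants and 2.76% to 4.26% in wild type. With an offset for gene length in each library, 999 genes were called, 777 of them shared with the 994, and 292 of the 436 genes were still called.

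**Figure D4:**
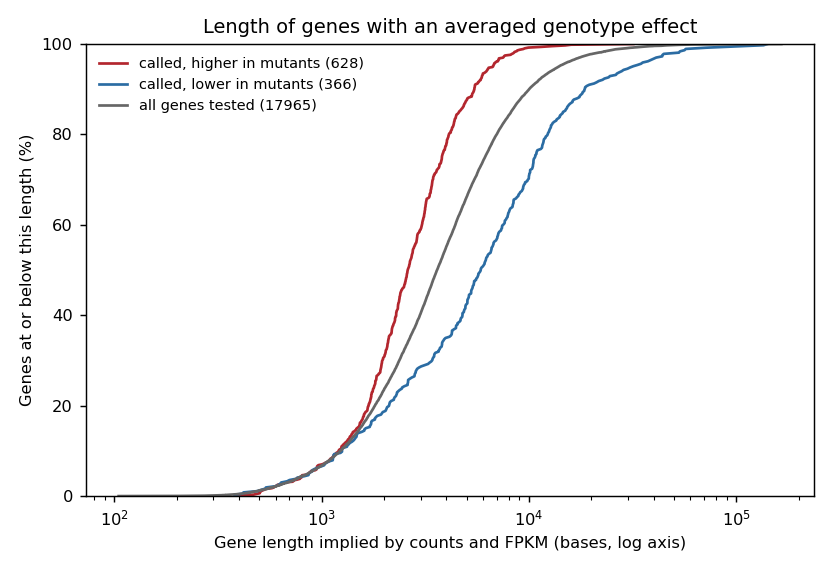
Share of genes (vertical axis, percent) at or below a given length in bases (horizontal log axis), for genes called in the averaged effect and higher in mutants (red), called and lower in mutants (blue), and all genes tested (grey). The red curve lies to the left of the grey one, with a median of 2602 bases, and the blue curve to its right, with a median of 5856 bases.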

How the data were processed

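Corneal endothelium RNA of 12 mouse libraries was sequenced as paired-end reads. TRIzol extraction and a kit that keeps transcript strand were used, per the labels' protocols. Trimming, alignment and counting tools (fastp, HISAT2, HTSeq), DESeq2 and build GRCm39 are listed without versions in the submitters' processing notes. The sources used here do not give the annotation or the strand setting of counting. The authors deposited read counts per gene, which were tested as they are. From the FPKM values that the authors deposited only the implied gene length was taken. Per the file headers, the authors' own tables for each stage give p- and q-values, a ratio of means and its log2. Per the file headers they also hold a signal, the mean DESeq2-normalized count by genotype, which was not used.

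Of 32761 genes, filterByExpr on the 4 groups in edgeR 4.0.16 (R 4.3.3) left 17965, of which 17571 matched a reference gene table by Entrez ID. The averaged effect came from a robust quasi-likelihood fit of stage plus genotype with TMM scaling (9 residual degrees of freedom, biological coefficient of variation 0.492). Early, late and stage difference came from a 4-group fit (8 degrees of freedom, 0.464). Adjusted p-values are Benjamini-Hochberg over all genes tested, and CPM are TMM-scaled. Replicate variance was 48.12 to 236.8 times the sampling noise, so none were copies. Scripts were tested on simulated counts.

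Genes and lists were chosen with earlier results of these data known. Among genes called in neither stage, the rule takes the 14 smallest p per direction at 5 CPM or more with no overlap. From the same set, overlap allowed, it takes the 6 highest in CPM per direction. From all genes called on average it takes the 5 highest and lowest averaged fold changes, at 5 CPM or more with no overlap. Up to 4 tested members per list, by smallest p, and a panel are taken whether called or not. Other list members are named because their list's count of calls includes them, after their values were seen. Some genes that the rule takes are not reported here. Promoters are from RefSeq, GRCm38.p6, another build than the counts. Alternatives were other scaling, filters, tests (DESeq2 1.42.0, limma-voom 3.58.1), no stage term, a replicate block, protein-coding genes alone, other stage calls, and libraries left out. The gene-length offset was chosen after seeing the data.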

Additional observations from a re-analysis of the deposited data

Results flagged for a closer look

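Isoc1 was the only gene of 17965 tested whose genotype effect differed between stages at an adjusted p under 0.05 (edgeR, late minus early log2 fold change -3.33, adjusted p = 0.0304). It had 141, 286 and 283 CPM in early mutants against 89.4, 77.7 and 82.7 CPM in early wild type, and 77.0, 63.8 and 74.8 CPM in late mutants against 118, 333 and 314 CPM in late wild type. The log2 fold change was 1.51 early and -1.83 late, and Isoc1 was not called on average (adjusted p = 0.908).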

How the results depend on the processing

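Counts of calls moved by over 1.5 times under some alternatives, and the cause was not tested. With no low-count filter 1536 genes were called (944 higher, 592 lower). With no stage term 560 were lower and 714 passed in neither stage. DESeq2's Wald test called 1930 (1049 higher, 881 lower, 54.4% higher in place of 63.2%), among them 434 of the 436 genes of the set, of which 134 still passed in neither stage by that test. Protein-coding genes alone gave 264 genes called in neither stage. When both early wild-type replicate 2 and replicate 1 of the late wild type were left out, 2465 were called (1527 higher, 938 lower), 385 of the 436 among them, with 114 still in neither stage.

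Leaving out 1 library gave 555 to 1810 calls, 394 to 1294 higher, 129 to 516 lower and 204 to 630 in neither stage. Calls numbered 572 without early mutant replicate 1 (204 in neither stage), 555 without late mutant 1, 588 without late mutant 3 and 1810 without late wild type 1, and lower genes 233, 232 and 235 without early mutant 2, late mutant 2 and late wild type 2. Of 67 genes of the set taken by the naming rule, 21 kept the call in all 12 such fits.

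Deviations of same-numbered mutant and wild-type replicates from their group means had correlations of -0.25 to 0.11. For replicates of different numbers they were -0.12 to 0.23. Deviations within a group are tied to one another by its mean, so these correlations cannot decide whether a number pairs animals. The labels do not say that it does, and no pairing was assumed. With the replicate block 683 genes were called (502 higher, 181 lower, 73.5% higher), 234 in neither stage, and 175 of the 436 were still called. Within 1.5 times of the averaged count were DESeq2 size factors (1017), the filter at 5 CPM in 3 libraries (935, 55.5% higher), limma-voom (981) and the mean of the 2 stage effects (1230). None of the 994 called genes changed sign in any of 23 alternatives that tested it, which choosing them on the same counts favours. Of the 436 genes, 70 kept the call in every fit that left out 1 library. A gene near 3 counts, 0.0761 to 0.152 CPM, is limited by depth.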
